A study of Mus musculus with 3 samples.

Results

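Retinae collected 2 days after Cav1-shRNA entered the vitreous were compared with retinae collected 2 hr after AP, the control of the series. The comparison used 2 of the 3 arrays of the study, and it covered 22180 genes, each read from the probe set with the highest mean among those that name a single gene. Caveolin-1, the product of Cav1, is the membrane protein that coats caveolae, small pits of the plasma membrane that are abundant in endothelium and also present in Muller glia. Cavtratin is a cell-permeable peptide made from the scaffolding domain of that protein. A short hairpin RNA is processed in the cell into a small RNA that guides cleavage of a matching transcript. Entry of a needle and a foreign agent into the eye is itself known to call in blood leukocytes and to activate microglia, the resident macrophages of the retina, and Muller glia, its supporting glial cell.

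All mice were C57, and the tissue of every sample was retina. The AP array and the cavtratin array stand at 2 hr, and the array labelled Cav1-shRNA stands at 2 days. The labels do not spell out AP, give no age or genotype, and name no hairpin control and no uninjected eye. Each array held RNA of 5 to 6 retinae pooled before labelling, so there is 1 array a group, no spread between animals and no p-value. Agent and time changed together, so a difference between these 2 arrays cannot be told apart into a part from the hairpin and a part from the later time.

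Expression is given as the deposited value, read as log2, and a difference is the hairpin-labelled array minus AP control, so that 1 unit is 2-fold. For a gene to count as 2-fold or more apart, its difference had to reach 1 in size and its higher array a floor of 6.50, the median over probe sets with a single symbol of their mean over the 3 arrays. Of the 22180 genes, 11433 reached the floor in either array. Their median difference was exactly 0, with 52.96% of them equal to within 1e-09, 86.04% within 0.1 of equal and 95.57% within 0.25. Of the genes at the floor, 2876 were higher and 2502 were lower in the hairpin-labelled array. In 1310 of them that array shared its value with cavtratin and not with AP control, and in 1292 AP control shared its value with cavtratin and not with the hairpin-labelled array. Probe sets of the same gene gave differences with an SD of 0.0877 over 274 genes, which measures the spread within these arrays and none between mice.

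The deposited value of the targeted transcript was not lower. Cav1 stood at 8.26 in AP control, at 8.26 in the hairpin-labelled array and at 8.26 in cavtratin, so the array is named by its label and every direction given here is drawn without a lower Cav1 value. Exactly equal values in all 3 arrays were found for 4975 genes at the floor, and whether such ties come from the processing before deposit was not tested, so the Cav1 value is no measure of how well the hairpin worked. Of 15 caveolar coat and partner genes, 10 were exactly equal and 5 were higher in the hairpin-labelled array. Over all 22180 genes the shares were 59.1% equal, 22.4% higher and 18.5% lower, and counts within the lists that follow are read against these shares. Differences near 0 can change side with the scaling of the arrays. The median of all genes moved by −0.016 when arrays were centred on their medians over probe sets with a single symbol. It moved by 0.0305 with quantile normalization. Ehd1, an endocytic recycling ATPase, had the highest difference of the group, with 8.06 in AP control and 8.44 in the hairpin-labelled array, and no member reached 2-fold. The genes that process small RNAs and sense double-stranded RNA were near 0 as well, with 3 of 15 higher, 7 lower and a median difference of 0. Within that group Ago2, the slicing Argonaute, stood at 9.74 and 9.70, and Ifih1, a cytoplasmic sensor of double-stranded RNA, stood at 8.55 and 8.22.

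**Figure D1:**
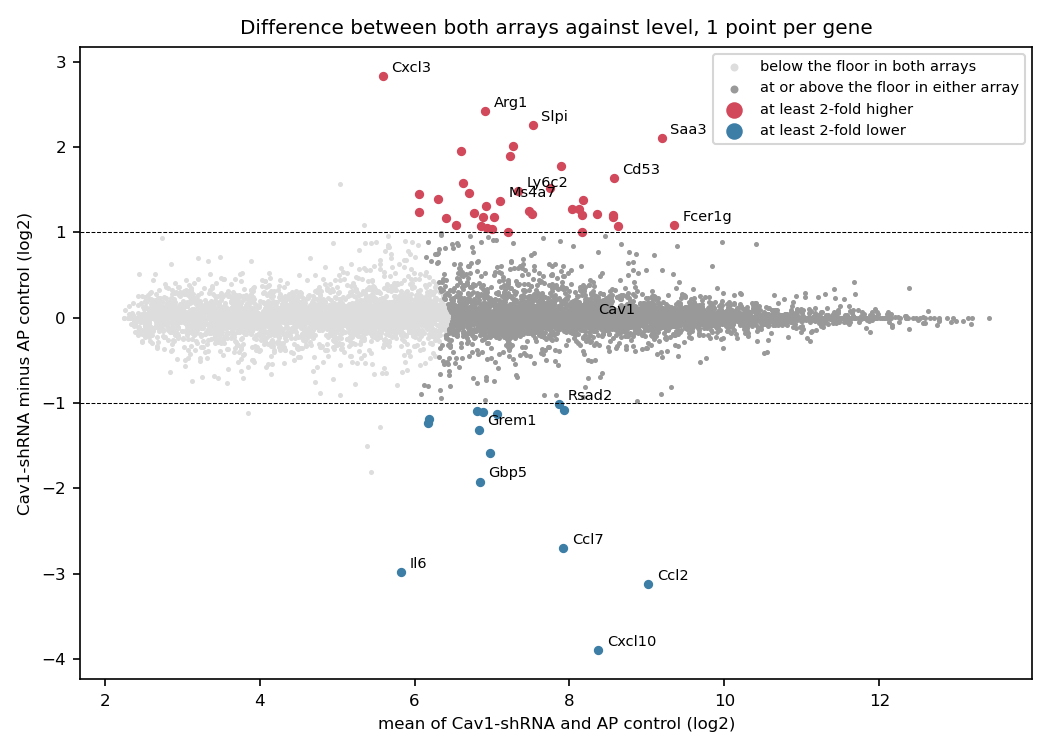
Each point is a gene, with the mean of AP control and the hairpin-labelled array on the horizontal axis and their difference on the vertical axis, both in log2 units; dashed lines mark 2-fold. Most genes sit at 0, the 39 red points lie at least 1 above it, the 14 blue points lie at least 1 below it, and Cav1 lies on the zero line.

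At least 2-fold higher in the hairpin-labelled array were 39 genes, or 0.341% of those at the floor, and at least 2-fold lower were 14, or 0.122%, together 53 genes or 0.464%. The highest differences were those of a neutrophil chemokine, arginase, a protease inhibitor, an acute-phase protein and a chemerin receptor. The lower genes were led by Cxcl10, Ccl2, Il6 and Ccl7, cytokines that draw or activate leukocytes, and by interferon-inducible GTPase and Ifi200 genes. All 53 were read from a single probe set. For 21 of the 39 higher genes AP control was under the floor, and for 9 of the 14 lower genes the hairpin-labelled array was, so those folds rest on a dim value. In bulk tissue, fewer cells of a type and less RNA per cell cannot be told apart.

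Promoters of 6 cytokine and interferon-inducible genes are shown so that short elements near their starts can be set beside their values. Ccl2 and Ccl7 had no entry. The motifs searched on both strands were the core of the interferon-stimulated response element (ISRE), spelled TTTC, any 2 bases and TTTC, a form of the kappaB site bound by NF-kB, spelled GGG, any 2 bases and TTTCC, and TGANTCA, the AP-1 site, which is its own reverse complement. The window ran from 250 bases before to 50 bases after each RefSeq gene start of build GRCm38.p6, and the 250 bases before the start are printed on the strand of the gene, 5′ to 3′, with motif matches in capitals. No match overlapped another in these windows. The first 3 are interferon-inducible genes that were lower in the hairpin-labelled array.
Cxcl10 (chr5:92348890-92349139, minus strand): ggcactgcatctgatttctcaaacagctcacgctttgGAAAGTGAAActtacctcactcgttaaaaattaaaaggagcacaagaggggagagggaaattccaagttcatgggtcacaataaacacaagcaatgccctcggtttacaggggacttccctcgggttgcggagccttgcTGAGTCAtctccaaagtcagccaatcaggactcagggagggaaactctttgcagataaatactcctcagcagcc
Rsad2 (chr12:26456453-26456702, minus strand): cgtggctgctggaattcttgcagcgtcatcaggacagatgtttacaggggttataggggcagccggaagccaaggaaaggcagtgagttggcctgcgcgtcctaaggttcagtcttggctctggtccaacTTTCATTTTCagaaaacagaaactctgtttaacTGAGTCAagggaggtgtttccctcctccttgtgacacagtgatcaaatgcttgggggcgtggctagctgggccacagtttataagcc
Gbp5 (chr3:142496684-142496933, plus strand): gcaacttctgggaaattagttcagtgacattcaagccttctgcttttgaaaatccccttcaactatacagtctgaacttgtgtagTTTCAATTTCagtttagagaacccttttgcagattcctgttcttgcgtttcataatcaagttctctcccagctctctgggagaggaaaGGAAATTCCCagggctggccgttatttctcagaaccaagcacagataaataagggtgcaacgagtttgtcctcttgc
Il6 and Cxcl1 were lower, and Cxcl3, a close relative of Cxcl1 in the same chemokine cluster, was higher.
Il6 (chr5:30012864-30013113, plus strand): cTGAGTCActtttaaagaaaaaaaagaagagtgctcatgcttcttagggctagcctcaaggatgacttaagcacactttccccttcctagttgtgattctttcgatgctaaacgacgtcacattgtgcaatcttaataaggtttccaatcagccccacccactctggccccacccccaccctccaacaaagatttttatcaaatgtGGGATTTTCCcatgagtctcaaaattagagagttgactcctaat
Cxcl1 (chr5:90890995-90891244, plus strand): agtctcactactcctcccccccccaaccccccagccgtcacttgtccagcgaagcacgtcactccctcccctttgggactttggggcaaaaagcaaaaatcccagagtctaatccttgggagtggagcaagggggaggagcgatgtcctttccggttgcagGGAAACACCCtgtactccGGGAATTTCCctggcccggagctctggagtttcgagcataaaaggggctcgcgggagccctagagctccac
Cxcl3 (chr5:90785851-90786100, plus strand): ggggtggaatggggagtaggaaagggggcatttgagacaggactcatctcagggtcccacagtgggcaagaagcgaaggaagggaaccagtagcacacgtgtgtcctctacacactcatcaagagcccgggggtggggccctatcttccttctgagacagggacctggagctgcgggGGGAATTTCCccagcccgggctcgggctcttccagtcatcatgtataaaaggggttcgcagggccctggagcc

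The ISRE core began 213 bases before the start of Cxcl10, 120 before that of Rsad2 and 165 before that of Gbp5. A kappaB form began 44 bases before the start of Il6 and 73 before that of Cxcl3, and Cxcl1 held 2, at 89 and 71 bases. Cxcl1, which was lower in the hairpin-labelled array, and Cxcl3, which was higher, both held a match close to the start. Whether a match is related to the direction of a gene was not tested. Of the 14 lower genes 9 had a promoter in the table, and the ISRE core was present in 4 of these 9 (Cxcl10, Gbp5, Ifi205 and Rsad2), the kappaB form in 3 (Cxcl1, Gbp5 and Il6) and the AP-1 site in 5 (Cxcl10, Il6, Lif, Rsad2 and Serpinb2). Of the 39 higher genes 31 had a promoter, with the ISRE core in 4, the kappaB form in 2 and the AP-1 site in 5. Over all 27025 genes of the table the shares were 3.99%, 1.895% and 8.97%. Over the 16990 genes with a promoter that were measured here they were 3.87%, 1.87% and 8.42%. A match is a stretch of letters and no evidence that a factor binds there. Other spellings of these sites were not searched, so a promoter without a match, such as that of Cxcl10 for kappaB, may still hold a site.

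Among the chemokines without an ELR motif, which chiefly draw lymphocytes and monocytes, Cxcl10 stood apart. Cxcl10, an interferon-inducible ligand of Cxcr3, was at 10.32 in AP control, 6.42 in the hairpin-labelled array and 7.03 in cavtratin. The hairpin-labelled value was 14.9-fold lower than that of AP control. AP control alone was high, and the hairpin-labelled value lay below the floor. Of the 11 genes in this group 6 were lower, 4 higher and 1 equal. Cxcl13, a B cell chemoattractant, was at 7.67 and 7.44, and Cxcl12, a homeostatic chemokine, was at 7.47 in all 3 arrays. Cxcr4, the receptor of Cxcl12 found on many leukocytes, went the other way, with 6.90 in AP control and 7.37 in the hairpin-labelled array.

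The chemokines with an ELR motif, which draw neutrophils through Cxcr2, were split. Cxcl3 was at 4.17 in AP control, 7.01 in the hairpin-labelled array and 9.10 in cavtratin, a 7.14-fold difference from AP control that starts far below the floor. Cxcl1 was at 6.78, 5.60 and 5.89 in the same order, and Cxcl5, below the floor in both compared arrays, was at 6.20 and 4.92. Cxcl2 differed little, at 8.16 and 8.39. The receptor gene Cxcr2 was at 6.58 in AP control and 6.81 in the hairpin-labelled array. Of the 8 genes of this group, receptors included, 6 were higher and 2 were lower, but only 4 of the 8 reached the floor. The group also held Pf4, a chemokine without the ELR motif. Pf4, Ppbp and Cxcr1 were among the higher genes and lay below the floor in both compared arrays.

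The monocyte-drawing CC chemokines Ccl2 and Ccl7 were both high in AP control alone. Ccl2 was at 10.58 in AP control, 7.46 in the hairpin-labelled array and 8.04 in cavtratin, with the hairpin-labelled value 8.70-fold lower than AP control. Ccl7, its neighbour in function at the receptor Ccr2, was at 9.27, 6.57 and 7.38, or 6.49-fold lower. Ccl17, a ligand of Ccr4, was lower too, at 6.53 and 5.63. Other CC ligands were higher, so the family did not share a direction. Ccl3, a macrophage inflammatory protein, was at 9.98 and 10.84, and Ccl5, a chemoattractant of T cells and monocytes, was at 8.49 and 9.15, with 8.07 in cavtratin. Of 16 measured ligands, Cx3cl1 included, 6 were lower, 4 higher and 6 equal, with a median difference of 0. Among the 10 measured receptors Ccrl2, a non-signalling receptor that presents chemerin, was alone at 2-fold, with 6.26 in AP control, 8.28 in the hairpin-labelled array and 9.75 in cavtratin. Ccr2, the receptor of Ccl2 and Ccl7, stayed below the floor at 5.90 and 6.10.

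Il6 and Lif, members of the cytokine family that signals through gp130, were both lower in the hairpin-labelled array than in AP control. Il6 was at 7.31 in AP control, 4.34 in the hairpin-labelled array and 4.98 in cavtratin. Lif, which Muller glia release in retinal injury, was at 7.62 in AP control, 6.50 in the hairpin-labelled array and 6.50 in cavtratin. Their receptors and the signal transducer were close to equal. Osmr, the oncostatin M receptor, was at 9.75 and 9.60, Stat3, the transcription factor of the pathway, was at 10.69 in all 3 arrays, and Socs3, its feedback inhibitor, was at 7.37 in both compared arrays. Of 14 genes in the group 8 were equal, 3 lower and 3 higher. Pim1, a kinase gene induced by Stat3, was the highest of the group at 7.14 and 7.64.

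Interleukin-1 family genes gave a divided picture in which an antagonist and an epithelial-type agonist were higher and the classical agonists were not. Il1f9, now named interleukin-36 gamma, was at 6.28 in AP control, 8.18 in the hairpin-labelled array and 9.83 in cavtratin. Il1rn, the receptor antagonist, was at 6.85, 8.10 and 9.43. Il1b was at 9.65 and 9.62, and Il1a was at 8.56 and 8.53, each far above the floor and nearly equal in both compared arrays. Cavtratin, at 2 hr like AP control, stood higher at 11.75 and 11.01. Of 13 members 5 were higher, 5 lower and 3 equal, with a median difference of 0.

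Genes of the tumor necrosis factor system and of NF-kB were mostly close to 0. Tnfrsf1b, the second receptor for tumor necrosis factor, was at 6.99 in AP control, 8.50 in the hairpin-labelled array and 9.86 in cavtratin, and it was the 1 gene at 2-fold among 19. Tnf was at 7.34 and 7.87. Fas, a death receptor, was lower, with 7.19 in AP control, 6.43 in the hairpin-labelled array and 7.13 in cavtratin, so that the 2-day value alone was low. In the list of 17 NF-kB subunits and inhibitors, 6 were higher, 7 lower and 4 equal. Ikbke, an inducible kinase upstream of NF-kB and of interferon regulatory factors, was at 6.15 and 7.38, and Birc3, an NF-kB target that blocks cell death, was at 7.30 and 6.87.

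Interferon-inducible GTPases were lower without exception among those that differed. Of 13 measured guanylate-binding proteins and immunity-related GTPases, which attack membranes of intracellular pathogens, 10 were lower, 3 equal and 0 higher, with a median difference of −0.36. Gbp5 was at 7.80 in AP control, 5.88 in the hairpin-labelled array and 6.11 in cavtratin. Gbp9 was at 8.12, 7.21 and 6.87, and Gbp10 was at 8.28, 7.38 and 7.26. In these 3 genes AP control alone was high. Smaller differences were those of Gbp3, at 7.27 and 6.58, of Gbp7, at 8.13 and 7.58, and of Igtp, at 8.22 and 7.94. Near-identical copies exist among these genes, and a shared probe cannot separate them.

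The Ifi200 family of nucleic acid sensors had a median difference of −0.27 over 7 genes, with 4 lower, 2 higher and 1 equal, but only 3 of the 7 reached the floor and the median member did not. Ifi203-ps was at 7.77 in AP control, 6.18 in the hairpin-labelled array and 6.42 in cavtratin. Ifi205 was at 8.468, 7.383 and 7.9995. Ifi204 was at 6.77 and 6.80, so the family was not lower as a whole, and its members share sequence that probes may not tell apart.

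Antiviral effectors of type I interferon were lower by less. Of 29 measured genes 17 were lower, 7 higher and 5 equal, with a median difference of −0.11. Rsad2, the antiviral enzyme viperin, was at 8.37 in AP control, 7.36 in the hairpin-labelled array and 8.76 in cavtratin, and was the 1 gene of the group at 2-fold. Ifit1, which binds foreign RNA ends, was at 9.71, 8.90 and 9.02. Isg20, an exonuclease, was at 7.51 and 7.03, and Parp14 was at 8.01 and 7.63. Other members of the same response had equal values: Ifit3 was at 6.92, Ifit2 at 6.78 and Ifitm3 at 10.07 in both arrays. Ifit2 and Ifit3 were tied with cavtratin as well, and whether such ties come from the processing before deposit was not tested. Of 17 interferons, their receptors and signalling factors 8 were higher, 6 equal and 3 lower, with a median difference of 0. Irf7, a master regulator of the type I response, had the highest difference at 8.05 and 8.44, Irf1 was at 7.05 in both arrays, and Irf9, a subunit of the factor that binds the ISRE, was at 8.56 and 8.47.

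**Figure D2:**
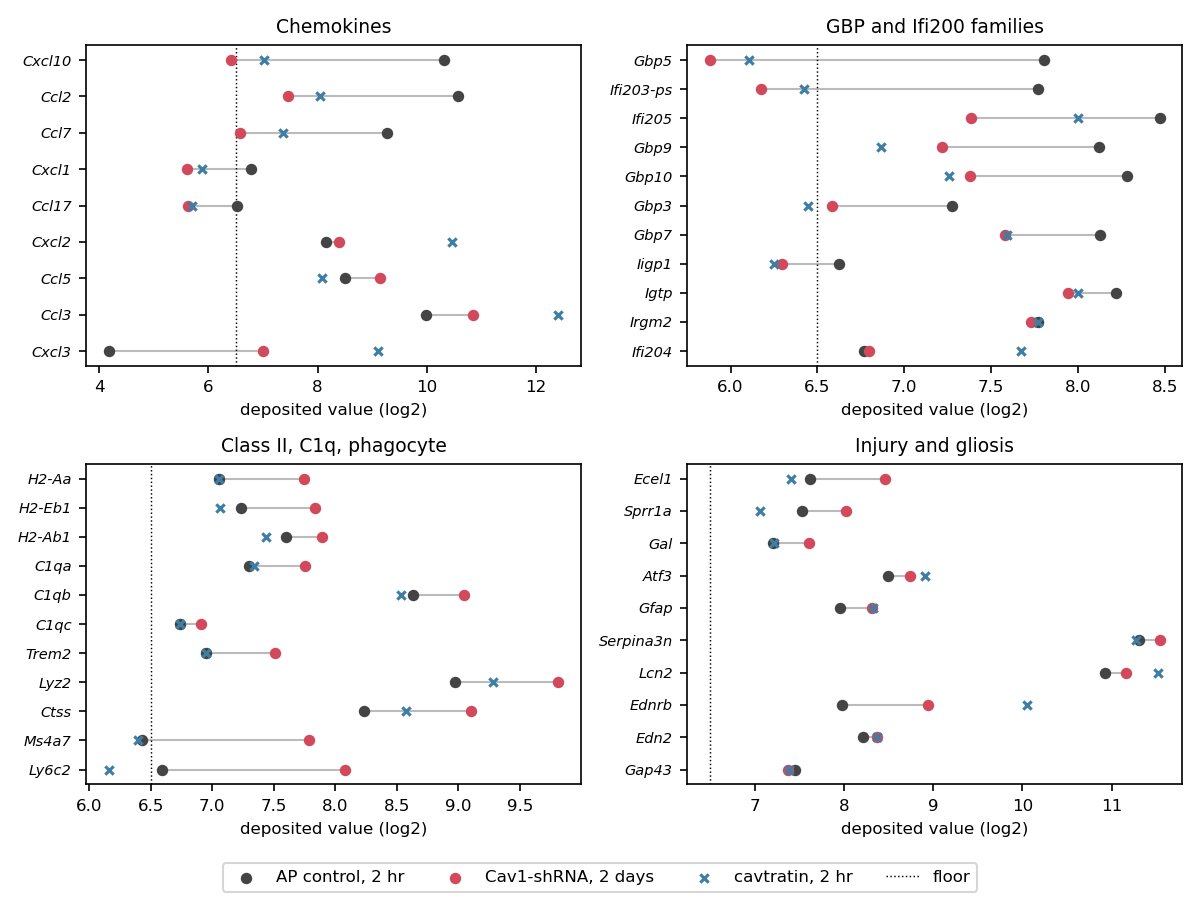
Each row is a gene and each point is 1 pooled array on the deposited log2 scale: dark points are AP control at 2 hr, red points the array labelled Cav1-shRNA at 2 days, blue crosses cavtratin at 2 hr, and the dotted line is the floor of 6.50. Cxcl10, Ccl2, Ccl7 and the GBP genes are high in AP control alone, Cxcl3 is at 4.17 in AP control and 7.01 in the hairpin-labelled array, and class II, C1q and Ms4a7 values are highest in the hairpin-labelled array.

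Receptors of myeloid cells were among the higher genes. Of 16 measured C-type lectin receptors and signalling adaptors 11 were higher, 1 lower and 4 equal, with a median difference of 0.69. Only 8 of the 16 reached the floor in either array, and 5 did so in AP control. Clec4d was at 5.63 in AP control, 7.58 in the hairpin-labelled array and 8.84 in cavtratin. Clec4e, the receptor Mincle that senses mycobacterial lipid and dead cells, was at 6.998, 8.77 and 10.54. Clec4n, the receptor Dectin-2, was at 5.44, 6.68 and 6.99. Fcer1g, the signalling chain these receptors use, was at 8.81, 9.90 and 10.67, and its partner adaptor Tyrobp was at 7.98, 8.75 and 9.36. The group did not move as a whole, since Clec7a, the receptor Dectin-1, was at 7.59 and 7.60. Card9, another adaptor of the list, was below the floor at 5.90 in both arrays. All 8 Fc receptor genes were higher, with a median difference of 0.33, and 6 of the 8 reached the floor. Among them Fcgr2b, the inhibitory receptor for immunoglobulin G, was at 7.47 and 8.07.

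Receptors for chemoattractants and metabolites were higher in 12 of 16 cases, with a median difference of 0.21, and 7 of the 16 reached the floor. Hcar2, a receptor for hydroxybutyrate and niacin, was at 5.84 in AP control, 7.41 in the hairpin-labelled array and 9.46 in cavtratin. Fpr2, a formyl peptide receptor, was at 5.33, 6.78 and 8.32. Ptafr, the receptor for platelet-activating factor, was just short of 2-fold at 6.68 and 7.67. Gpr84, a receptor for medium-chain fatty acids, was the 1 lower member, at 7.58 and 7.15. Paired and inhibitory receptors were higher in 19 of 24 cases with a median difference of 0.38, and 11 of the 24 reached the floor. They were led by Slamf7 at 6.29 and 7.47, and Lilrb4a, an inhibitory receptor, was at 9.53 and 10.41.

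Toll-like receptor genes did not share a direction. Of 17 measured, 9 were higher, 5 lower and 3 equal. Tlr13, an endosomal sensor of bacterial ribosomal RNA, was at 5.82 in AP control, 6.99 in the hairpin-labelled array and 7.98 in cavtratin. Cd14, a co-receptor of Tlr4, was at 7.09 and 7.67, and Irak3, an inhibitor of the pathway, was at 5.98 and 6.80. Tlr2, a receptor for bacterial lipoproteins, was lower, with 7.39 in AP control, 6.65 in the hairpin-labelled array and 7.43 in cavtratin.

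Secreted defence proteins were among the genes with the highest differences. Slpi, an inhibitor of leukocyte elastase, was at 6.40 in AP control, 8.66 in the hairpin-labelled array and 10.04 in cavtratin. Saa3, an acute-phase serum amyloid, was at 8.14, 10.25 and 11.53. S100a8, a subunit of calprotectin, was at 5.98, 7.44 and 9.72, while its partner S100a9 was below the floor at 5.77 and 6.02. In each of these genes the hairpin-labelled array lay between the others. Hp, haptoglobin, was at 6.32 and 7.40, and Wfdc17, a small whey-acidic-type secreted protein, was at 7.49 and 8.76. Lcn2, a siderophore-binding protein, differed little at 10.92 and 11.16. Of 19 measured alarmins and acute-phase proteins 11 were higher, 4 lower and 4 equal, but only 6 of the 19 reached the floor. The lowest difference was that of Orm2, below the floor at 6.34 and 4.53.

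Several enzymes known from activated macrophages were higher. Arg1, which breaks down arginine, was at 5.70 in AP control, 8.12 in the hairpin-labelled array and 9.20 in cavtratin, a 5.35-fold difference from AP control. Nos2, inducible nitric oxide synthase, which competes for the same substrate, was at 6.41, 7.30 and 8.61. Acod1, the enzyme that makes itaconate, was at 7.98, 9.16 and 11.03. Hmox1, the heme-degrading enzyme, was at 7.39, 8.67 and 9.28. The other arginine genes were close to equal, with Arg2 at 9.29 and 9.39. In the Nrf2 group 11 of 14 genes were higher with a median difference of 0.13, but the cystine importer Slc7a11 was lower at 9.63 and 8.73, with 9.77 in cavtratin.

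Further genes at 2-fold on the higher side had various roles. Cd53, a leukocyte tetraspanin, was at 7.76 in AP control and 9.39 in the hairpin-labelled array. Rac2 and Pik3ap1, signalling proteins of blood cells, were at 7.66 and 8.67 and at 7.56 and 8.76. Itgb2, the beta chain of the leukocyte integrins, was at 6.70 and 7.71. Mpeg1, a pore-forming protein of macrophages, was at 6.90 and 8.12, and Cd68, a lysosomal protein of phagocytes, was at 8.09 and 9.16. Slc11a1, a metal transporter of the phagosome, was at 6.43 and 7.62, Rab32, a small GTPase, at 5.60 and 6.99, Igsf6, an immunoglobulin-type receptor, at 7.75 and 8.96, and Cyp4f18, which inactivates leukotriene B4, at 6.27 and 7.58. Among clotting and matrix genes, F10, coagulation factor X, was at 6.47 and 7.52, F13a1, the transglutaminase chain of factor XIII, at 5.99 and 7.08, Tgfbi, an adhesion protein induced by TGF-beta, at 7.48 and 8.86, and Thbs1, thrombospondin 1, at 7.96 and 9.16. Slfn2, a Schlafen gene of myeloid and T cells, was at 6.40 and 7.46.

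**Figure D3:**
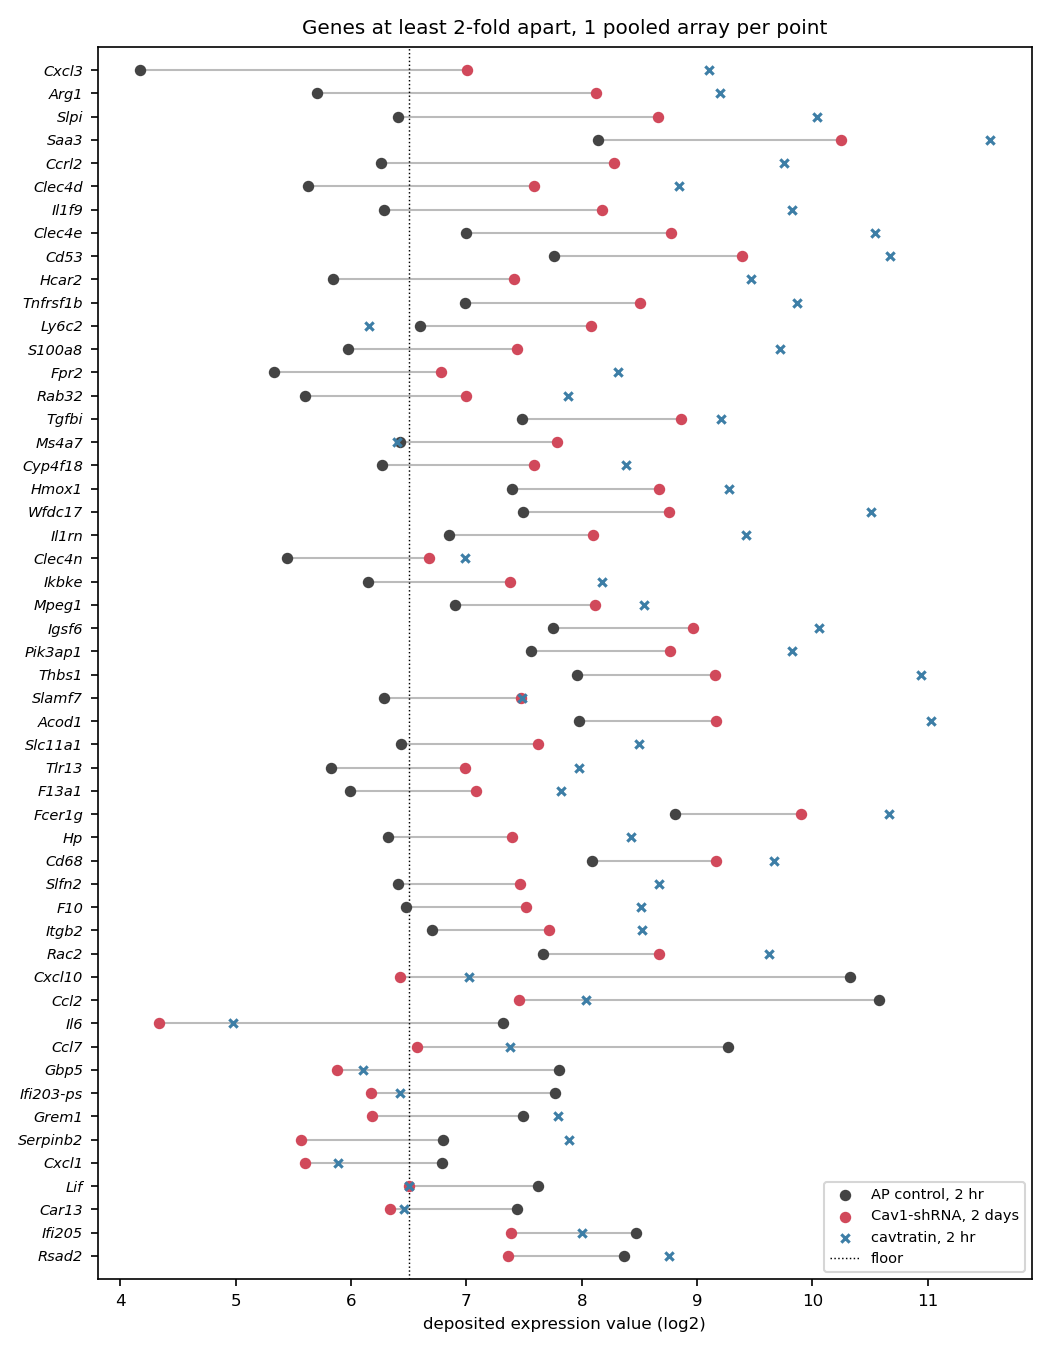
Each row is a gene at least 2-fold apart, sorted by difference, on the deposited log2 scale; dark points are AP control, red points the array labelled Cav1-shRNA, blue crosses cavtratin and the dotted line the floor, and the 1 microRNA gene of the lower group is left out. Cavtratin lies beyond the red point in 37 of the 39 higher genes, with Ly6c2 and Ms4a7 the exceptions, and its position was not counted over all genes.

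The lower side also held extracellular and metabolic genes. Grem1, an antagonist of bone morphogenetic proteins, was at 7.49 in AP control, 6.18 in the hairpin-labelled array and 7.79 in cavtratin. Serpinb2, an inhibitor of plasminogen activators, was at 6.79, 5.56 and 7.89. In both genes the 2-day value was below the 2 values taken at 2 hr, whereas Car13, a carbonic anhydrase, was at 7.44, 6.34 and 6.46, high in AP control alone. The plasminogen group had 5 lower, 4 higher and 4 equal genes of 13, and Plat, tissue plasminogen activator, was at 8.74 and 8.09, with F3, tissue factor, at 8.59 and 7.88. In the hyaluronan group Tnfaip6, which links proteins to hyaluronan, was at 6.81 and 5.86 and Ptx3, a pentraxin of the same matrix, at 6.57 and 5.77. Adamts1, a matrix protease, was just short of 2-fold at 9.36 and 8.38. On the higher side Itgb2 and Rac2 were the members just inside 2-fold, at differences of 1.01 and 1.004, and Ptafr and Tnfrsf23 were just outside at 0.99 and 0.99. On the lower side Ifi205 and Rsad2 were just inside at −1.08 and −1.01, and Adamts1 was just outside at −0.98.

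In a smaller number of genes the 2-day array was higher than, or as high as, both 2 hr arrays. Of the 103 genes at least 1.5-fold higher, or 0.901% of those at the floor, 88 were higher still in cavtratin. In 10 of the rest cavtratin lay between or at the compared arrays, and in 5 it lay below both. Of the 42 genes at least 1.5-fold lower, or 0.367%, cavtratin lay between or at the compared arrays in 26, below both in 9 and above both in 7. The position of cavtratin was not counted over all genes. AP control served both to pick these genes and to place cavtratin, so the counts are not independent of how the genes were picked. The higher genes with cavtratin not above both were singled out after their values were seen. Ly6c2, a surface protein of inflammatory monocytes, was at 6.59 in AP control, 8.08 in the hairpin-labelled array and 6.16 in cavtratin. Ms4a7, a membrane protein of macrophages, was at 6.43, 7.79 and 6.40. H2-Aa and H2-Eb1, chains of MHC class II, were at 7.05, 7.74 and 7.05 and at 7.24, 7.84 and 7.06. Lyz2, macrophage lysozyme, was at 8.97, 9.81 and 9.28, and Ctss, the protease that trims the class II invariant chain, was at 8.24, 9.10 and 8.57. Adgre1, an adhesion receptor that marks macrophages, was at 6.23, 7.19 and 7.06. Genes of other kinds were in the set as well. Ecel1, a neuronal endopeptidase induced by nerve injury, was at 7.62, 8.46 and 7.41. Igfbp3, a binding protein of insulin-like growth factors, was at 6.83, 7.70 and 7.38, and Pdlim3, a cytoskeletal protein of muscle, was at 8.49, 9.23 and 8.83. Mxra8, a matrix remodelling protein, was at 7.42, 8.05 and 7.86, and Anpep, an aminopeptidase, was at 6.39, 7.0002 and 7.0002. The others were Ccl5, Gpnmb and C3ar1, the receptor for complement C3a, the last at 7.14, 7.87 and 7.68.

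MHC class II and its processing genes were higher in 8 of 13 cases and lower in 2, with a median difference of 0.18. Of 14 class I presentation genes 10 were higher and 1 lower, with B2m, the light chain of class I, at 12.21 and 12.55. Of 18 complement genes 10 were higher and 3 lower. C1qa and C1qb, chains of the C1q complex made by microglia and macrophages, were at 7.30 and 7.75 and at 8.63 and 9.05, while cavtratin stood at 7.34 and 8.54. Cfb, complement factor B, was lower at 7.67 and 6.97. Activated phagocyte genes were higher in 17 of 22 cases with a median difference of 0.21, among them Trem2, a lipid receptor, at 6.95 and 7.51 with 6.95 in cavtratin, and Gpnmb, a lysosomal glycoprotein, at 8.73 and 9.46. Ch25h, which makes 25-hydroxycholesterol, was lower at 6.75 and 5.91. Identity genes of resident microglia differed far less: 8 of 14 were higher, 6 equal and 0 lower, with a highest difference of 0.29. Their median was 0.015, or −0.0006 after centring each array on its median over probe sets with a single symbol. P2ry12, P2ry13, Siglech and Gpr34 were each exactly equal in all 3 arrays, and Siglech and Gpr34 were below the floor. The origin of such ties was not tested.

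**Figure D4:**
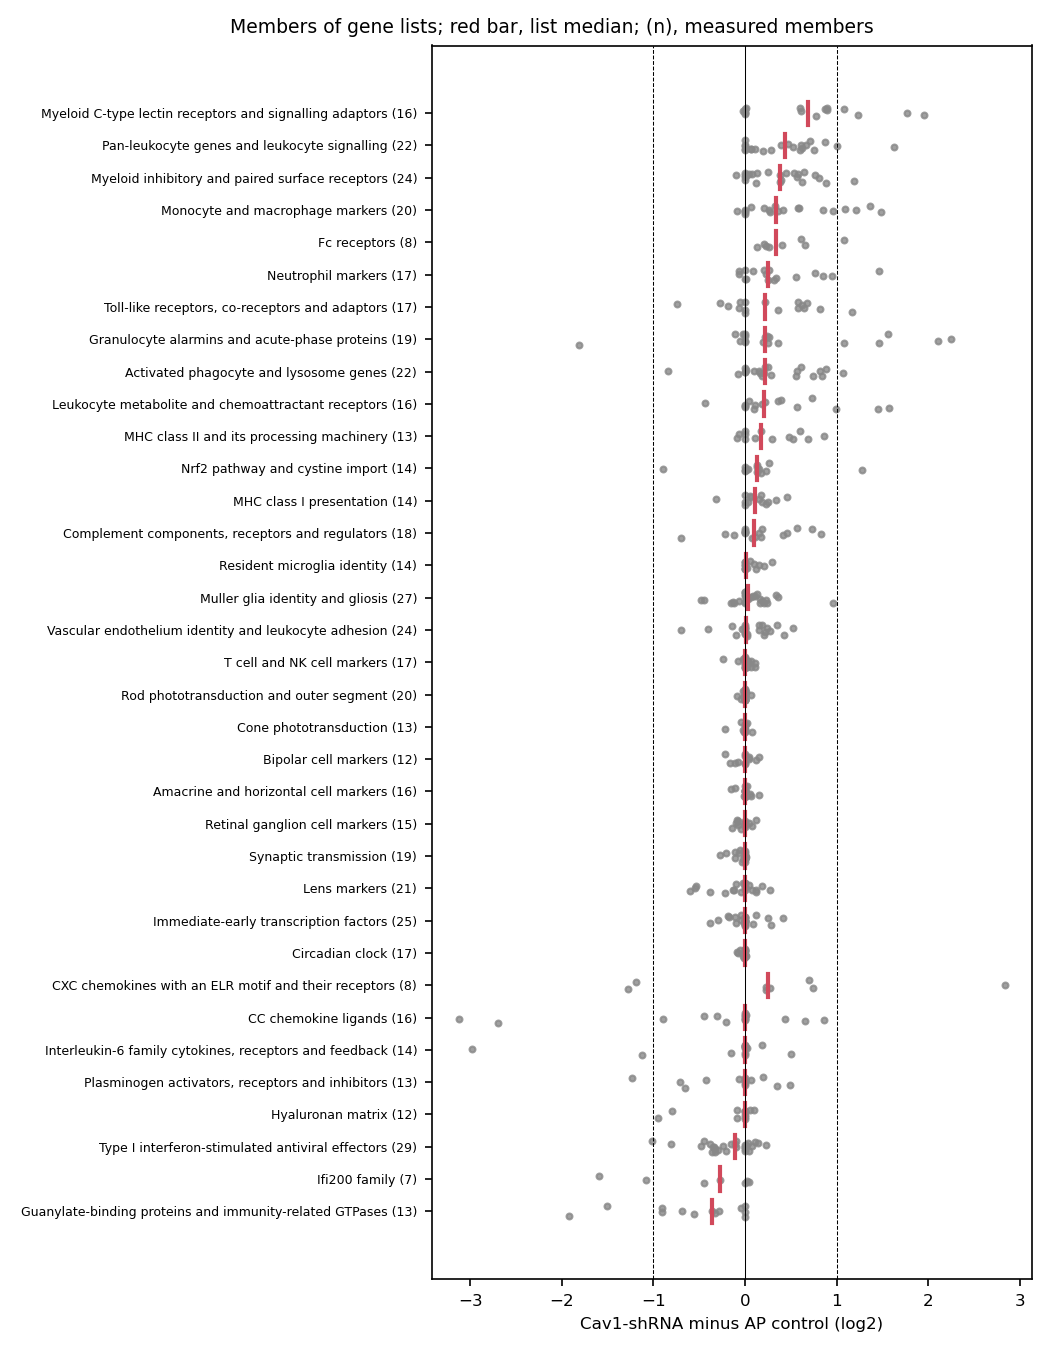
Each grey point is a measured member of a gene list, placed by the difference between the array labelled Cav1-shRNA and AP control in log2 units; the red bar is the list median, the number after each name counts measured members, and points are spread vertically at random. Lectin receptor, pan-leukocyte and paired receptor medians lie at 0.69, 0.43 and 0.38, retinal neuron medians at or next to 0, and the GBP median at −0.36.

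Markers of other cells were set beside these results. Pan-leukocyte genes were higher in 17 of 22 cases and lower in 0, with Ptprc, the antigen CD45, at 7.09 and 7.71. Monocyte and macrophage markers were higher in 15 of 20 cases and neutrophil markers in 13 of 17, with medians of 0.34 and 0.25. Of the 20 monocyte and macrophage markers 10 reached the floor in either array, and 5 did so in AP control. For neutrophils, 6 of 17 markers reached the floor, Ly6g and Mpo were below it at 4.92 and 4.94 and at 4.82 and 4.91, and Csf3r, the receptor of granulocyte colony-stimulating factor, was at 7.15 and 7.71. None of 17 T cell and NK cell markers reached the floor in either array, with Cd3e at 5.15 in both. Of 8 measured B cell markers 2 reached the floor, and the median difference of the 8 was 0. Cd79a and Ms4a1 were below the floor. Their part in the differences of the genes described above was not tested.

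Genes of retinal cells matched the tissue label, and their deposited values barely differed. Exactly equal were 9 of 20 rod, 6 of 13 cone, 3 of 12 bipolar, 8 of 16 amacrine and horizontal and 5 of 15 ganglion cell genes. Over all genes 59.1% were equal, and the origin of such ties was not tested. All 20 rod genes were far above the floor, at 9.69 or more in AP control, and their differences ran from −0.091 to 0.063. Gnat1, the rod transducin subunit, was at 13.19 in all 3 arrays and Pde6g, the inhibitory subunit of the rod phosphodiesterase, was at 12.21 and 12.12. Of 13 cone genes Arr3, cone arrestin, had the lowest difference, at 10.003 and 9.78. Bipolar, amacrine and horizontal, and ganglion cell lists had medians of 0, and their lowest difference was −0.22. Synaptic genes were lower in 10 of 19 cases and higher in 1, with Gria2, a glutamate receptor subunit, at 10.56 and 10.29. Lens markers had a median of 0, and Cryaa, alpha-A crystallin, was at 9.18 in AP control and 8.96 in the hairpin-labelled array against 12.00 in cavtratin. Pigment epithelium genes were close to equal, with Rpe65, the visual cycle isomerase, at 7.63 and 7.45.

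Glia and vessels held a few larger differences. Of 27 Muller glia and gliosis genes 15 were higher, 6 lower and 6 equal. Ednrb, the endothelin B receptor, was at 7.98 in AP control, 8.94 in the hairpin-labelled array and 10.05 in cavtratin. Gfap, the intermediate filament of reactive glia, was at 7.96, 8.32 and 8.33. Serpina3n, a protease inhibitor of reactive glia, was at 11.31, 11.53 and 11.27. Hbegf, an epidermal growth factor ligand, was lower at 7.72 and 7.27. In endothelium, 12 of 24 genes were higher and 5 lower. Cdh5, the endothelial cadherin, was at 7.72 and 8.24, and Pecam1 was at 7.78 and 8.13. Vcam1 and Icam1, the receptors that leukocyte integrins bind, were at 8.75 and 8.05 and at 6.94 and 6.54. Of 11 leukocyte integrin chains 5 were higher and 6 exactly equal, with a median difference of 0. Itgam, the alpha chain of the complement receptor of myeloid cells, was at 6.32 and 7.15, while Itga4 and Itgal, alpha chains of the receptors for Vcam1 and Icam1, were equal at 7.24 and 6.57.

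Axon injury genes were near 0 as a group, with a median difference of 0.081 over 15, and 9 were higher. Sprr1a, a marker of regenerating neurons, was at 7.53 in AP control, 8.03 in the hairpin-labelled array and 7.06 in cavtratin, and the neuropeptide gene Gal was at 7.21, 7.61 and 7.22. Atf3, a transcription factor of injured neurons, was at 8.49 and 8.74, and Gap43, a growth cone protein, was at 7.45 and 7.37. Ecel1, Sprr1a and Gal were each highest at 2 days.

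Clock, immediate-early, stress and cell division genes were close to equal. Of 17 circadian clock genes 9 were exactly equal, 7 lower and 1 higher, with differences from −0.092 to 0.0091, and Arntl, a core clock activator, was at 10.23 and 10.24. Immediate-early transcription factors, which answer a stimulus within minutes, had a median of 0 over 25 genes, with Fos at 7.41 and 7.04, Egr1 at 7.36 and 7.06 and Junb equal at 8.64. Heat shock and endoplasmic reticulum stress genes were lower in 0 of 12 and 0 of 14 cases, and the highest of these was Hspa1b, an inducible heat shock protein, at 8.72 and 8.97. Of 29 cell division genes 18 were equal. Ccnd1, a cyclin of the first growth phase, was at 8.02 and 8.35, and Cdkn1a, a cell cycle inhibitor, was at 8.79 and 8.49. Xist, the RNA of the inactive X chromosome, was at 12.45 and 12.32 and the Y-linked genes Eif2s3y, Kdm5d and Uty were below the floor in both arrays.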

How the data were processed

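RNA of pooled retinae was amplified, labelled with biotin and hybridised to Affymetrix whole-transcript arrays, per the labels' protocols. The deposited log2 values entered unchanged; their base was inferred from the range, and for summarisation and scaling the method is not given in the sources used here. The table held 41345 probe sets. GEO's platform annotation, which can be old, gave a single symbol to 23521, several to 1814 and none to 16010, and only the first were named. Of these, 23328 matched RefSeq (GRCm38.p6) by Entrez identifier. With 1 array a group no test was run, and the number of arrays limits the precision. Lists and members were chosen with earlier results of these data known. In all, 72 lists were used, of 1128 symbols with 1032 measured. The rule for named genes was all genes at least 2-fold apart without predicted models, small RNAs and multicopy families, their neighbours at the threshold, and up to 4 members of each list with the largest differences at the floor, with defining markers. Other members named were chosen after their values were seen. Array medians over all 41345 probe sets were 6.07 in AP control and 6.01 in Cav1-shRNA. Centring used the medians over the 23521 probe sets with a single symbol, so its shift differs from the gap between these 2 values. Counting was tested on simulated data. Alternatives were other scalings, floors, fold thresholds and the mean of probe sets. Python 3.11.15, pandas 2.3.3 and statsmodels 0.14.6 were used.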

Additional observations from a re-analysis of the deposited data

How the results depend on the processing

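No paired analysis was possible because each group holds 1 array. Counts of genes at least 2-fold higher and lower were 37 and 14 after centring, 43 and 13 after quantile normalization, 39 and 14 after subtraction of a loess trend and 39 and 14 with the mean of all probe sets, and all 39 and 13 of the 14 remained under quantile normalization. The 53 called genes each had a single probe set, so averaging probe sets could add genes but drop none. With no floor the counts were 41 and 18. A floor 1 unit higher left 27 and 8, and with both arrays required at the floor 18 and 5 were left, since genes that start or end below it drop out. The 1.5-fold threshold gave 103 and 42, and the 3-fold threshold gave 9 and 6, or 60% higher among the calls against 73.6% at 2-fold. Centring moved the median of all genes by −0.016 and quantile normalization by 0.0305. Of 70 list medians, all stayed within the spread between probe sets of the same gene under the 4 scaling and probe set alternatives, and those that changed sign, 5 after centring and 2 after quantile normalization, were smaller than that spread. Centring shifts every gene by the same amount, which is smaller than that spread, so it could not take a median beyond it. With members at the floor alone, a choice that favours members high in either array, 15 of 69 medians moved by more. Among them the Ifi200 median was −1.08, GBP −0.62, chemoattractant and metabolite receptors 0.73, monocyte and macrophage markers 0.91, neutrophil markers 0.44 and MHC class II 0.29. Among genes at least 1.5-fold apart, the ISRE core was in 12.3% of higher and 25.0% of lower promoters, the kappaB form in 4.94% and 14.3%, and the AP-1 site in 11.1% and 32.1%. At 2-fold the lower shares were 44.4%, 33.3% and 55.6% of 9 promoters.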

Other observations

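Probe sets with no single gene name were counted apart. Among the 5568 probe sets at the floor with no gene listed, 68 were at least 2-fold lower in the array labelled Cav1-shRNA and 6 were at least 2-fold higher. Among the 824 with several symbols, 5 were lower and 0 higher. Among the 11433 named genes at the floor 14 were lower and 39 higher, and the difference in these shares was not tested. Their identity was not analysed here.

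A further 6 genes were at least 2-fold apart with both arrays below the floor. Stfa2l1, a stefin-type protease inhibitor, was at 4.25 in AP control and 5.82 in the array labelled Cav1-shRNA, Ly6i, a Ly6 surface protein gene, was at 4.80 and 5.89, and Gbp4, a guanylate-binding protein, was at 6.13 and 4.63. Cxcl5, Orm2 and the predicted model Gm6871 were lower.

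The spread of differences varied with level, without a steady order. It had an SD of 0.120 over the 9331 genes with a mean below 6, where 7 were 2-fold apart before the floor was applied, of 0.173 over the 6422 genes with a mean from 6 to 8, where 32 were, of 0.136 over the 5310 genes with a mean from 8 to 10, where 20 were, and of 0.0758 over the 1117 genes with a mean of 10 or more, where 0 were.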
